A study of Homo sapiens with 6 samples.

Results

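The genes described are 5 WNT ligands (WNT5A, WNT5B, WNT7A, WNT7B and WNT10A) and 5 genes that set or report the activity of β-catenin (DKK1, SFRP1, CTNNB1, AXIN2 and TCF7L2). They were chosen by name, and each name matched 1 row, so that 10 of the 58735 genes in the count table were found. The cells were MCF10A, an established nonmalignant mammary epithelial line, transfected with siRNA against DAB2IP (siDAB2IP, n = 3 libraries) or with a nontargeting control pool (siControl, n = 3 libraries) and collected 48 hours later. DAB2IP is a RasGAP, a protein that switches off RAS. All 6 libraries came from this 1 line, grown with horse serum, insulin, epidermal growth factor, cholera toxin and hydrocortisone, and nothing in the labels says whether the replicates were separate cultures, so the p-values measure the spread between these libraries only.

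WNT proteins are secreted, lipid-modified ligands that bind Frizzled receptors with the co-receptors LRP5 and LRP6. In the canonical branch this halts the complex of AXIN, APC and GSK3 that marks β-catenin for destruction, and β-catenin then enters the nucleus and binds TCF/LEF factors such as TCF7L2 at their target genes. AXIN2 and DKK1 are described targets that act back on the pathway, and SFRP1 binds ligands outside the cell. β-Catenin also links cadherins to the actin skeleton at adherens junctions, and in the mammary gland WNT signaling is best known for its part in basal cells and their progenitors. WNT5A and WNT5B are mainly known for signaling without β-catenin.

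The promoter of DKK1 is shown because DKK1 is a described feedback target and its sequence upstream of the start holds the core letters of the TCF/LEF motif. The stretch is RefSeq sequence of build GRCh38.p14, chr10:52314031-52314280 on the plus strand. Its 250 bases end at the base before the start of transcription given for this promoter. The annotation used for the counts starts DKK1 further on, at 52314296. Capitals mark the core CTTTG or its reverse complement CAAAG.
DKK1: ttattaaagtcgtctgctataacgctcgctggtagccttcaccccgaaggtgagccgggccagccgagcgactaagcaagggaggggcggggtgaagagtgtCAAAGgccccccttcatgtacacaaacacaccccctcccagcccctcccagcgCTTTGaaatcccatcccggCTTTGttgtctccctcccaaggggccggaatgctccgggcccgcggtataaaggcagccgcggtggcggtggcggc
The 3 matches begin 148, 95 and 76 bases before the start given for this promoter. RefSeq promoters were matched for 7 of the 10 genes, and WNT7B, SFRP1 and AXIN2 were not matched. On both strands, CTTTG was present in 3 of the 11 upstream windows of these 7 genes (DKK1 and 2 of the windows of TCF7L2), and in 42.1% of all 35116 windows of the same 250 bases. The longer form CTTTGAT was present in none of the 11 windows and in 2.26% of all windows. TGANTCA, with any base at N, a pattern that includes the AP-1 motif and is wider than it, was present in none of the 11 and in 6.57% of all. The NF-κB motif, searched as GGGRNNYYCC (R is A or G, Y is C or T, N is any base), was present in 3 of the 11 (WNT7A, WNT10A and 1 window of TCF7L2) and in 9.96% of all windows. A match is a run of letters and not a measured binding site.

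The libraries held 16353783 to 21916062 counts, so that 3 counts, the limit that a count of 0 allows, correspond to 0.139 to 0.187 CPM (counts scaled to the library total, here with TMM factors). This limit covers counting error only. DAB2IP was at 103, 94.2 and 77.4 CPM in siControl replicates 1, 2 and 3 and at 27.5, 25.6 and 22.4 CPM in siDAB2IP replicates 1, 2 and 3. This gene, the target of the siRNA, fell by 1.86 on the log2 scale (adjusted p = 9.71e-05, edgeR). Of 9 mammary epithelial markers, all tested, 3 fell, or 33.3% called, against 14.2% of all genes tested. The other 6 did not pass, 3 of these with a positive fold change. The basal keratin KRT5, the most abundant, was at 3532 ± 378 CPM in siControl and 1800 ± 40.9 CPM in siDAB2IP (SD, n = 3 each). The 4 markers of hormone receptor positive luminal cells summed to 20.7 to 27.2 CPM in siControl and 22.3 to 27.3 CPM in siDAB2IP. The 2 tested differed in opposite directions. FOXA1 rose (4.64 to 9.67 CPM, adjusted p = 0.0274, edgeR). GATA3 had a negative fold change that did not pass, and it was called as fallen with the replicate number as a block. ESR1 was at 0.25 and 0.49 CPM, and PGR had no count. The 4 leukocyte markers summed to at most 0.325 CPM in a library and none was tested. Of 7 fibroblast markers 4 were too low to be tested, COL1A2 and COL3A1 among them. Of the 3 tested 1 rose, or 33.3% called, against 14.2% of all genes tested. This was COL1A1, from 15.3 to 26.3 CPM (adjusted p = 0.0130, edgeR). The other 2 had negative fold changes that did not pass, and DCN, 1 of these, was at 201 and 143 CPM. With the replicate block 1 of the 3 rose and 1 fell. The 4 endothelial markers summed to 23.1 to 33.1 CPM in siControl and 14.8 to 16.3 CPM in siDAB2IP. Of them 1 fell, or 25.0% called, against 14.2% of all genes tested. Proliferation markers differed between the groups and between the siDAB2IP libraries. Their summed level was 709 to 1004 CPM in siControl, and 386, 560 and 171 CPM in siDAB2IP replicates 1, 2 and 3, and 7 of the 10 markers fell (edgeR, adjusted p under 0.05), against 7.65% of all genes tested. With the replicate number as a block 9 fell, and 0 of the 10 were called in every fit that left out a library. By contrast, the authors reported increased proliferation of MCF10A cells after DAB2IP knockdown in a cell proliferation assay, a measure unlike these transcripts. The part of the proliferation markers in the results below was not tested.

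Knockdown of DAB2IP was compared with control to ask how these genes differ when the transcript of the RasGAP is lowered. DAB2IP itself remained at 0.27 times its siControl level. The paper lists a single siRNA product against it, so effects of the reagent on other transcripts and those of less DAB2IP cannot be told apart. SFRP1, the WNT-binding inhibitor, and CTNNB1, which encodes β-catenin, fell to 0.60 and 0.72 times their siControl levels, WNT7B rose to 2.23 times, and the other genes did not pass the test. Of the 10 genes, 9 passed the filter on low counts and were tested, with 1 rise and 2 falls at a Benjamini-Hochberg adjusted p under 0.05 in the quasi-likelihood test of edgeR. Of all 15430 genes tested, 14.2% were called, 6.55% as risen and 7.65% as fallen. With 9 genes tested, nothing more is read from the difference between 3 of 9 and this background. The 6 that did not pass were WNT5A, WNT5B, WNT7A, WNT10A, DKK1 and TCF7L2, and AXIN2 was not tested. For 5 of the 9 (SFRP1, CTNNB1, WNT7B, DKK1 and WNT5A) the CPM values of the siDAB2IP libraries lay entirely above or below those of siControl, which held for 35.9% of all genes tested. With the replicate number as a block, 4 of the 9 were called, the same 3 and WNT7A, against 21.0% of all genes in that fit. The median log2 fold change of the 9 was 0.21, and that of all genes tested was 0.01.

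**Figure D1:**
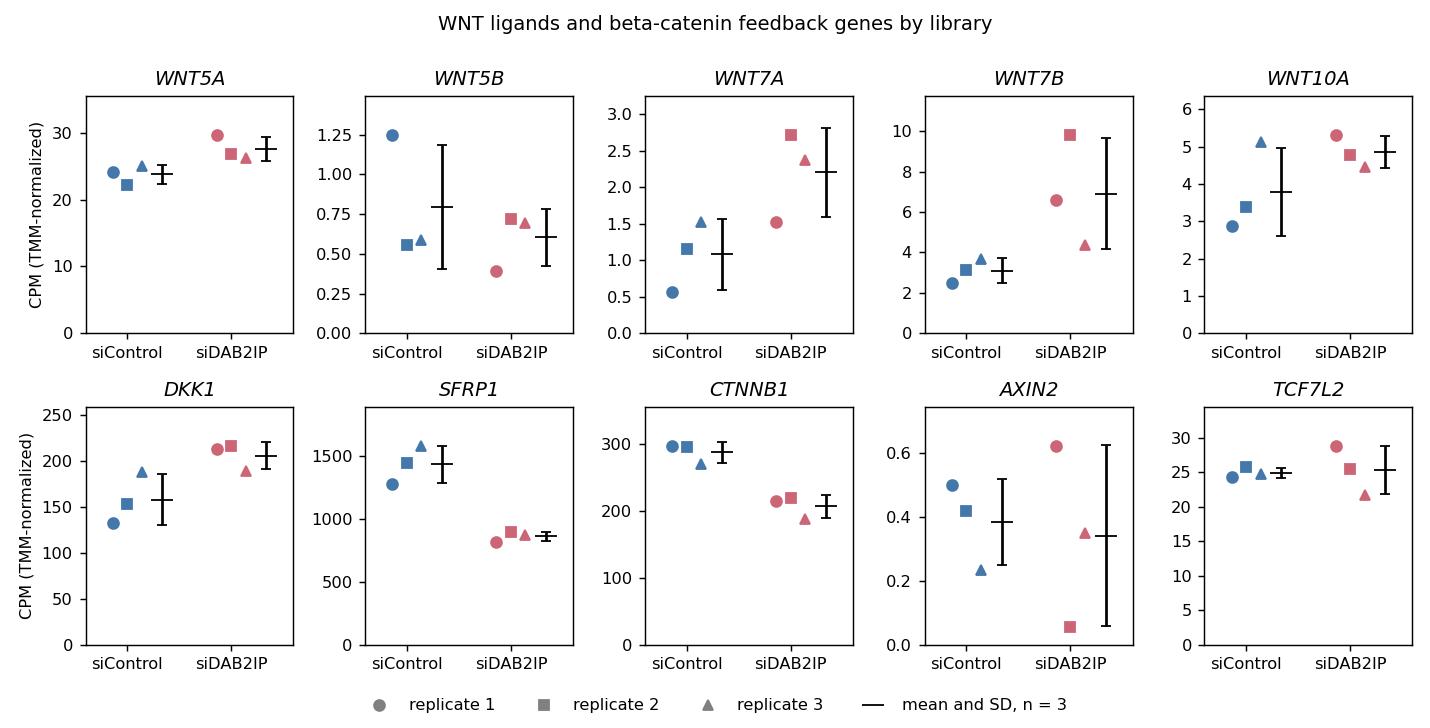
TMM-normalized CPM (y axes, linear from 0, a scale of its own in each panel) of the 10 genes in the siControl (blue) and siDAB2IP (red) libraries, with a marker shape for each replicate number and the mean and SD of 3 libraries in black. SFRP1 and CTNNB1 are lower in each siDAB2IP library than in each siControl library, WNT7B is higher with a wide spread (4.35 to 9.80 CPM), and AXIN2 is near the counting limit.

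Among the ligands, WNT7B, a canonical ligand expressed in epithelia, rose. It was at 2.49, 3.11 and 3.70 CPM in siControl replicates 1, 2 and 3 and at 6.60, 9.80 and 4.35 CPM in siDAB2IP replicates 1, 2 and 3. All siDAB2IP libraries were above all siControl libraries, but replicate 3 of siDAB2IP lay close to the highest control. The log2 fold change was 1.16 (standard error 0.30, 95% interval 0.49 to 1.82, adjusted p = 0.0314), and the two-sided exact permutation test over libraries gave p = 0.1, which is the floor of that test with 3 libraries in each group. The call rested on nearly every library. The adjusted p was 0.112, 0.111 and 0.0618 without siControl replicates 1, 2 and 3, it was 0.0571 and 0.0909 without siDAB2IP replicates 1 and 2, and it was 0.00258 without siDAB2IP replicate 3 (edgeR). WNT7B lies on chromosome 22 (hg38, chr22:45920362-45977129, minus strand), and its counts, 40 to 177 per library, were summed over its exons.

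WNT7A, the close paralog of WNT7B and likewise able to signal through β-catenin, had a fitted difference nearly as large, which did not pass the test. It was at 0.56, 1.16 and 1.53 CPM in siControl and at 1.52, 2.71 and 2.38 CPM in siDAB2IP. The groups touched, since siDAB2IP replicate 1 was level with siControl replicate 3. The log2 fold change was 1.01 (standard error 0.39, 95% interval 0.15 to 1.87, adjusted p = 0.109, edgeR; exact permutation p = 0.2). Within replicate numbers the siDAB2IP level was 2.72, 2.34 and 1.56 times the siControl level, and with the replicate block the difference passed (log2 fold change 1.05, adjusted p = 0.0391). The counts were low, 9 to 49 per library, and their sums of 60 and 117 give a ratio per total count of 2.06 with an exact 95% interval of 1.5 to 2.86 for counting error only. WNT7A lies at chr3:13816258-13880121 on the minus strand.

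WNT5A, the best known ligand of the noncanonical branch, was slightly higher in each siDAB2IP library than in each siControl library, by less than the test could separate. Its level was 24.1, 22.1 and 25.0 CPM in siControl and 29.6, 26.8 and 26.3 CPM in siDAB2IP. The gap between the groups was small beside the spread within them, and the log2 fold change was 0.21 (standard error 0.12, 95% interval −0.04 to 0.47, adjusted p = 0.249, edgeR; exact permutation p = 0.1). WNT5A lies at chr3:55465715-55490539 on the minus strand.

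WNT10A, a canonical ligand of skin appendages and other epithelia, was at 2.87, 3.39 and 5.11 CPM in siControl and at 5.30, 4.76 and 4.46 CPM in siDAB2IP. Only siControl replicates 1 and 2 were below the siDAB2IP libraries, and the log2 fold change was 0.36 (95% interval −0.19 to 0.90, adjusted p = 0.373, edgeR; exact permutation p = 0.3). WNT5B, the paralog of WNT5A, was barely transcribed, with 20, 12 and 10 counts in siControl and 7, 13 and 12 counts in siDAB2IP. Its log2 fold change was −0.37 (95% interval −1.40 to 0.66, adjusted p = 0.642, edgeR), an interval that spans changes in either direction, and no difference was detectable at this depth. WNT10A lies at chr2:218880363-218899581 and WNT5B at chr12:1529891-1647243, both on the plus strand.

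Per gene length, the ligand transcripts of these cells came mostly from genes outside the 5. Expressed as TPM, which divides each count by the length of the gene before scaling, the 19 WNT genes summed to 36.9, 36.8 and 48.3 TPM in siControl and to 50.5, 58.5 and 48.6 TPM in siDAB2IP. The sum was higher in each siDAB2IP library, and siControl replicate 3 and siDAB2IP replicate 3 were nearly level. WNT10B held 26.6 ± 4.78% of the sum in siControl and 26.4 ± 1.30% in siDAB2IP (SD, n = 3 each), and WNT5A held 25.1 ± 2.56% and 22.8 ± 2.72%. WNT10A held 8.49 ± 1.42% and 8.71 ± 1.12%, and WNT5B held 1.48 ± 0.83% and 0.85 ± 0.23%. The share of WNT7B was 4.16%, 5.25% and 4.85% in siControl and 8.37%, 10.9% and 5.50% in siDAB2IP, and that of WNT7A was 1.80 ± 0.67% and 2.92 ± 0.68%. The 5 ligands together held 41.7 ± 1.21% of the sum in siControl and 43.6 ± 2.92% in siDAB2IP, ranges that overlapped. These shares are descriptions without a test.

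**Figure D2:**
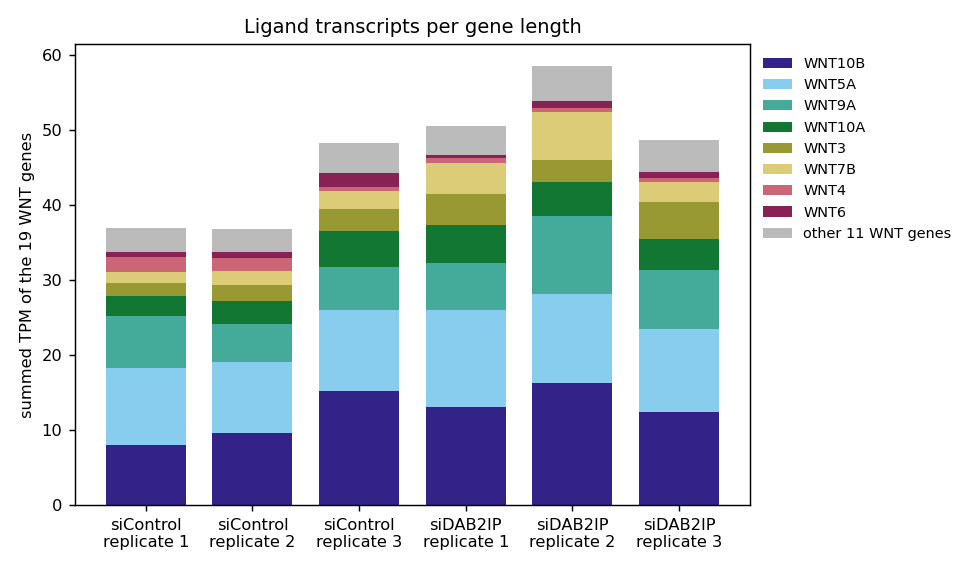
Summed TPM (y axis, linear from 0) of the 19 WNT ligand genes in each library (x axis), stacked by gene, with the 8 genes of the largest mean share in siControl in color and the other 11 genes in gray. The siDAB2IP bars reach 48.6 to 58.5 TPM against 36.8 to 48.3 TPM in siControl, and the WNT7B segment is larger in siDAB2IP replicates 1 and 2 than in the other libraries.

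Of the secreted inhibitors, SFRP1 was the most abundant of the 10 genes and fell. SFRP1 was at 1283, 1443 and 1579 CPM in siControl and at 820, 894 and 873 CPM in siDAB2IP. Every siDAB2IP library was far below every siControl library, and the siDAB2IP libraries lay close together. The log2 fold change was −0.74 (standard error 0.12, 95% interval −1.01 to −0.46, adjusted p = 0.00512, edgeR), a level 0.60 times that of siControl, and the exact permutation test gave p = 0.1. The call was kept in all 15 alternative fits, the 6 without 1 library included, with log2 fold changes from −0.83 to −0.68. SFRP1 lies on chromosome 8, and in bulk RNA a loss of cells that express it and a lower level per cell cannot be told apart. Of the 9 mammary epithelial markers, the 3 that fell were the basal keratins KRT5, KRT14 and KRT17 (log2 fold changes −0.97, −1.52 and −0.54, adjusted p = 0.00223, 0.00577 and 0.0366, edgeR). The other 6, TP63 and ITGA6 among them, did not pass, 3 of these with a positive fold change. What part the cells marked by any of these genes had in the fall of SFRP1 was not tested.

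DKK1, which binds LRP5 and LRP6 and so blocks the canonical branch, differed in the other direction without passing the test. It was at 132, 153 and 188 CPM in siControl and at 213, 216 and 189 CPM in siDAB2IP. The groups did not overlap, but siControl replicate 3 and siDAB2IP replicate 3 were within 1 CPM of each other. The log2 fold change was 0.38 (standard error 0.13, 95% interval 0.09 to 0.68, adjusted p = 0.0828, edgeR; exact permutation p = 0.1), and it was 0.40 with an adjusted p = 0.0571 with the replicate block. The difference passed when replicate 3 of siControl was left out (adjusted p = 0.0435), when replicate 3 of siDAB2IP was left out (0.0360) and when low counts were not filtered (0.0296). Its counts, 2123 to 3897 per library, were high, so counting error was small beside the spread between libraries. DKK1 lies at chr10:52314296-52318042 on the plus strand, and PRKG1-AS1 overlaps 9.61% of its exon bases on the opposite strand with 25 counts in all libraries, or 0.13% of the count of DKK1.

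CTNNB1 fell. It was at 297, 296 and 270 CPM in siControl and at 216, 219 and 188 CPM in siDAB2IP. The 3 siDAB2IP libraries were all below the 3 siControl libraries, with the lowest level of each group in replicate 3. The log2 fold change was −0.47 (standard error 0.10, 95% interval −0.70 to −0.24, adjusted p = 0.0168, edgeR; exact permutation p = 0.1), or 0.72 times the siControl level. Within replicate numbers the ratios were 0.73, 0.74 and 0.69. The adjusted p was 0.0714 without siControl replicate 2 and 0.0134 to 0.0460 without any other library. CTNNB1 lies at chr3:41194741-41260096 on the plus strand, no other gene shares its exons, and the RNA level says nothing of the protein, whose amount is set largely by its destruction.

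The other partners of β-catenin at adherens junctions did not pass the test. Of the 7 in the list 5 were tested, none was called by edgeR or with the replicate block, and their median log2 fold change was −0.18. CDH3, the P-cadherin of basal mammary cells and the most abundant of them, was at 578 ± 29.9 CPM in siControl and 496 ± 10.7 CPM in siDAB2IP (SD, n = 3 each; log2 fold change −0.22, 95% interval −0.45 to 0.01, adjusted p = 0.180, edgeR).

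AXIN2, the most widely used transcript of canonical activity, was near the limit of detection. It had 8, 9 and 4 counts in siControl and 11, 1 and 6 counts in siDAB2IP. The groups overlapped throughout, with both the highest and the lowest value in siDAB2IP, and the levels were 0.38 ± 0.14 and 0.34 ± 0.28 CPM (SD, n = 3 each; two-sided exact permutation p = 0.9). AXIN2 did not pass the filter on low counts. The sums of 21 and 18 counts give a ratio per total count of 0.91, with an exact 95% interval of 0.45 to 1.78 for counting error, so that no difference was detectable at this depth. AXIN2 lies at chr17:65528563-65561647 on the minus strand, and AC004805.1, which shares 25.2% of its exon bases on the same strand, had 0 counts. Reads in shared bases may have been left out of both genes.

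TCF7L2, a DNA-binding partner of β-catenin, had nearly equal means. It was at 24.3, 25.7 and 24.7 CPM in siControl and at 28.8, 25.5 and 21.7 CPM in siDAB2IP. The siDAB2IP libraries spread to both sides of the siControl libraries, and the log2 fold change was 0.02 (standard error 0.13, 95% interval −0.26 to 0.31, adjusted p = 0.924, edgeR; exact permutation p = 0.8). TCF7L2 lies at chr10:112950250-113167678 on the plus strand, and AL158212.2 overlaps 4.45% of its exon bases on the opposite strand with 17 counts.

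**Figure D3:**
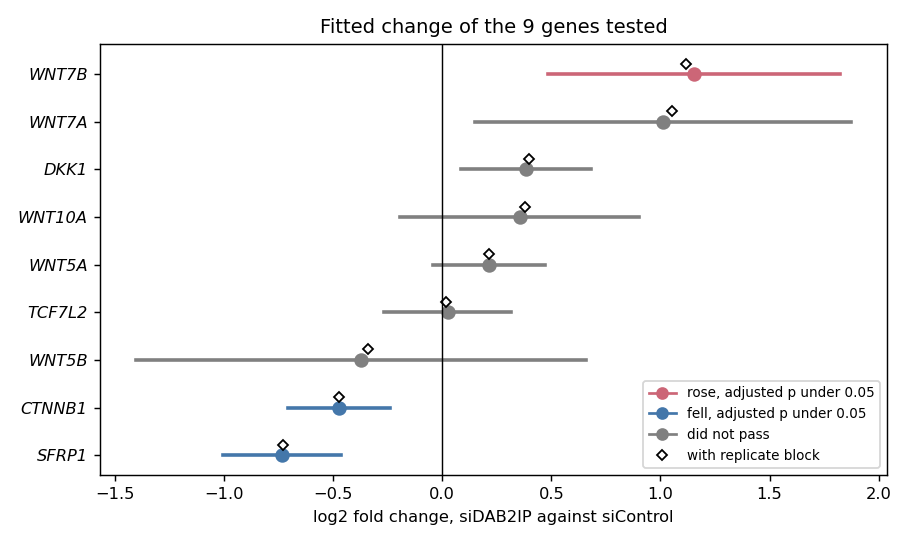
Fitted log2 fold change of siDAB2IP against siControl (x axis) for the 9 genes tested (y axis), with the 95% interval as a bar, colored by call, and the estimate with the replicate block as a diamond. WNT7B lies at 1.16, CTNNB1 and SFRP1 at −0.47 and −0.74 with intervals that do not reach 0, and the interval of WNT5B is the widest.

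The order of levels per length was the same in both groups. In siControl, SFRP1 led with 950 ± 112 TPM, followed by DKK1 with 225 ± 43.4 TPM, CTNNB1 with 75.9 ± 3.02 TPM, TCF7L2 with 11.6 ± 0.40 TPM and WNT5A with 10.1 ± 0.71 TPM (SD, n = 3 each). WNT10A with 3.51 TPM, WNT7B with 1.94 TPM, WNT7A with 0.75 TPM, WNT5B with 0.58 TPM and AXIN2 with 0.23 TPM came after them. Neighbors in this order did not overlap in range except WNT7A and WNT5B. In siDAB2IP, SFRP1 was at 580 ± 29.8 TPM and DKK1 at 299 ± 29.2 TPM, and the ranges of TCF7L2 and WNT5A, of WNT10A and WNT7B (4.55 ± 0.48 and 4.42 ± 1.84 TPM) and of WNT5B and AXIN2 overlapped.

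Replicate number 3 stood apart for these genes. The ratio of siDAB2IP to siControl was lowest within number 3 for 8 of the 9 genes tested, against 40.0% of 15427 genes, and WNT5B was the exception. This count was made after the values had been seen. For WNT7B the ratios were 2.65, 3.15 and 1.18 in numbers 1, 2 and 3, for DKK1 they were 1.61, 1.41 and 1.01, and for WNT10A they were 1.85, 1.41 and 0.87. For SFRP1 the ratios were 0.64, 0.62 and 0.55, so that here the lowest ratio is the deepest fall. Both libraries of number 3 enter these ratios. siControl replicate 3 held the highest siControl level of WNT5A, WNT7A, WNT7B, WNT10A, DKK1 and SFRP1. For SFRP1, siDAB2IP replicate 3 was at 873 CPM, above siDAB2IP replicate 1 at 820 CPM. Summed proliferation markers were highest in siControl replicate 3 (1004 CPM) and lowest in siDAB2IP replicate 3 (171 CPM). The part of these differences in the ratios was not tested.

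**Figure D4:**
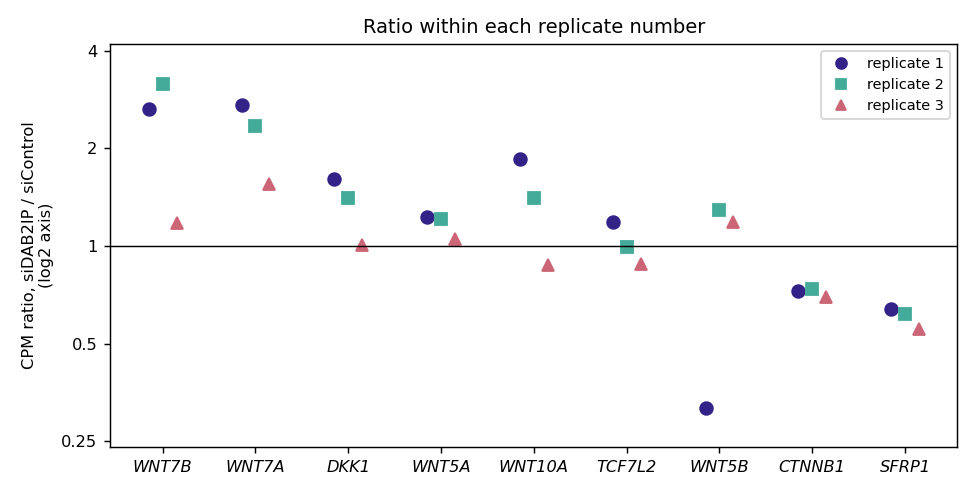
Ratio of CPM in siDAB2IP to siControl within each replicate number (y axis, log2 scale) for the 9 genes tested (x axis), with a color and shape for each number and a line at a ratio of 1. The triangle of replicate 3 is the lowest of the 3 for 8 of the genes, for example 1.18 for WNT7B and 0.55 for SFRP1, and WNT5B, lowest in replicate 1 at 0.32, is the exception.

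The rest of the pathway was measured in 8 lists of 116 genes, of which 89 were tested. Of these 5 rose and 10 fell, 16.9% in all, against 14.2% of all genes tested, so the share called is near the background. With the replicate block 9 rose and 17 fell, or 26 of 89, a larger share than the 21.0% of all genes called in that fit. The labels do not say what a replicate number stands for, so nothing more is read from this difference. The median log2 fold change was −0.05. Fits that left out a library called 2 to 6 as risen and 6 to 14 as fallen, with the fewest without siControl replicate 2. Over all genes these fits called 264 to 1172 as risen and 459 to 1352 as fallen, again with the fewest without siControl replicate 2. With all libraries 1011 rose and 1181 fell.

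The transcripts of the 2 genes of ligand secretion changed in opposite directions, and export itself was not measured. PORCN, the enzyme that attaches the lipid WNT proteins need, was at 19.6, 21.5 and 21.5 CPM in siControl and at 31.9, 29.9 and 31.2 CPM in siDAB2IP and rose (log2 fold change 0.57, adjusted p = 0.0102, edgeR; 0.0556 without siControl replicate 2). WLS, the carrier that brings the lipid-modified ligand to the cell surface, was at 84.7, 92.3 and 92.6 CPM in siControl and at 59.1, 58.2 and 59.0 CPM in siDAB2IP and fell (log2 fold change −0.61, adjusted p = 0.00303). For both genes the groups were well separated and the libraries within a group were close together. Of the 14 other ligands 5 were tested and none was called by edgeR (1 rose with the replicate block), and the most abundant, WNT10B, was at 9.15 ± 2.97 and 11.4 ± 1.49 CPM (SD, n = 3 each; adjusted p = 0.377).

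Among the receptors, 3 of 16 tested fell and none rose. This was 18.8% called, against 14.2% of all genes tested in either direction and 7.65% as fallen. With 16 genes tested, nothing more is read from this difference. With the replicate block 5 of the 16 fell and none rose, a larger share than the 21.0% of all genes called in that fit, or the 11.4% as fallen. Nothing more is read from this difference either. FZD4, a Frizzled receptor for WNT ligands and norrin, was at 44.3, 46.3 and 36.1 CPM in siControl and at 8.12, 6.31 and 3.54 CPM in siDAB2IP. This was the deepest fall in the pathway lists, to 0.14 times the siControl level (log2 fold change −2.82, standard error 0.25, adjusted p = 0.000229, edgeR). ROR2, a receptor tyrosine kinase that binds WNT5A, was at 2.68, 2.37 and 2.58 CPM in siControl and at 0.79, 0.28 and 0.41 CPM in siDAB2IP (log2 fold change −2.36, adjusted p = 0.00475). FZD1 fell from 37.2 ± 6.04 to 20.0 ± 2.85 CPM (SD, n = 3 each; log2 fold change −0.89, adjusted p = 0.00628). All 3 calls were kept without any 1 library. LRP5, the co-receptor and the most abundant of the list in both groups, was at 379 ± 26.4 and 432 ± 47.2 CPM and did not pass (adjusted p = 0.313).

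The R-spondin module holds the ubiquitin ligases that remove Frizzled receptors and the ligands and receptors that restrain these ligases. Of its genes 5 were tested and 1 was called, or 20.0%, against 14.2% of all genes tested. LGR4, a receptor for R-spondins, fell from 131 ± 18.6 to 88.6 ± 6.84 CPM (SD, n = 3 each; log2 fold change −0.57, adjusted p = 0.0146, edgeR; 0.0571 without siControl replicate 2). Of 7 other extracellular or surface inhibitors tested none was called by edgeR (1 fell with the replicate block). TRABD2A, a protease that cleaves WNT ligands and the most abundant of them by mean over the libraries, was at 36.3 ± 4.91 and 37.9 ± 5.89 CPM (SD, n = 3 each; adjusted p = 0.824, edgeR). KREMEN1, a receptor for DKK1 named after its values were seen, was at 41.9 ± 1.91 and 24.1 ± 9.03 CPM (SD, n = 3 each), with an adjusted p = 0.0506 in edgeR, or 0.0141 with the replicate block.

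Among 18 genes of the Dishevelled and destruction complex tested, 2 rose and 3 fell, or 27.8%, against 14.2% of all genes tested. With 18 genes tested, nothing more is read from this difference. CSNK1E, a casein kinase that phosphorylates Dishevelled, rose (192 ± 6.84 to 290 ± 20.4 CPM, log2 fold change 0.60, adjusted p = 0.00524, edgeR), as did DVL1, a Dishevelled (log2 fold change 0.41, adjusted p = 0.0327). GSK3B, the kinase that marks β-catenin, fell (76.1 ± 5.66 to 50.7 ± 2.78 CPM, log2 fold change −0.58, adjusted p = 0.00541). BTRC, the ubiquitin ligase subunit that recognizes the marked protein, fell (log2 fold change −0.79, adjusted p = 0.00998), as did the scaffold AMER1 (−0.52, adjusted p = 0.0490). DVL1 lost its call without any 1 library except siDAB2IP replicate 3 (adjusted p = 0.0647 to 0.123). AMER1 lost its call without siControl replicates 2 and 3 and without siDAB2IP replicates 1 and 2 (0.0625 to 0.164). CSNK1D, the most abundant of the list in siControl, did not pass (log2 fold change 0.08, adjusted p = 0.705).

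Of 15 nuclear factors tested 1 was called, or 6.67%, against 14.2% of all genes tested. This was BCL9L, a coactivator of β-catenin, which rose (157 ± 11.7 to 211 ± 22.3 CPM, log2 fold change 0.43, adjusted p = 0.0314, edgeR). BCL9L kept its call only without siDAB2IP replicate 1 or 3 (adjusted p = 0.0609 to 0.169 without the other libraries). TLE5, listed under its older symbol AES, was at 179 ± 18.8 and 135 ± 22.1 CPM and did not pass (adjusted p = 0.0728; 0.0150 with the replicate block). Of 21 genes of the planar polarity and calcium branch tested, 1 rose and 2 fell, or 14.3%, against 14.2% of all genes tested. With the replicate block 4 rose and 5 fell of the 21, a larger share than the 21.0% of all genes called in that fit. With 21 genes tested, nothing more is read from this difference. CELSR3, a cadherin of planar polarity, rose (log2 fold change 1.01, adjusted p = 0.00270), whereas its relative CELSR2 fell (−0.60, adjusted p = 0.0276), and so did the formin DAAM1 (−0.54, adjusted p = 0.0466). CELSR2 lost its call without any 1 siControl library (0.0543 to 0.0762), and DAAM1 lost it without any 1 library except siDAB2IP replicate 1 (0.0545 to 0.152).

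**Figure D5:**
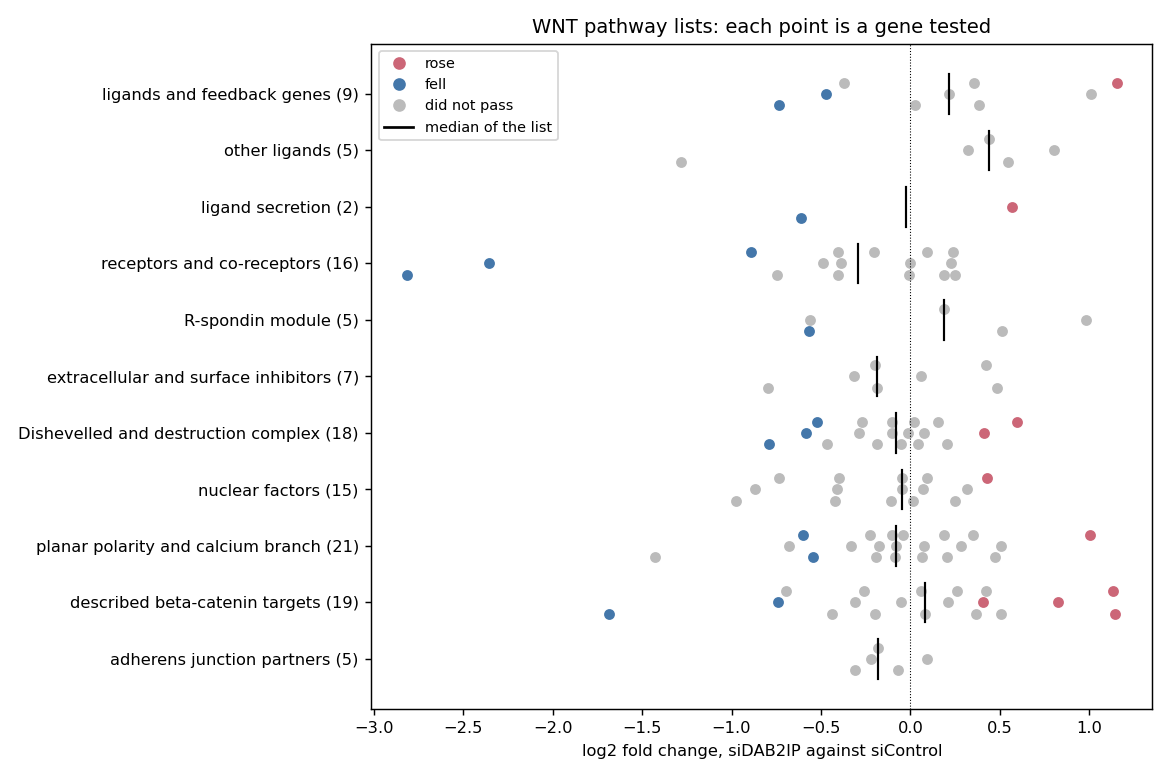
Log2 fold change of siDAB2IP against siControl (x axis) for each gene tested (points) in the lists of the WNT pathway (y axis, number of genes tested in parentheses), colored by call, with the median of each list as a black line. FZD4 and ROR2 lie farthest to the left at −2.82 and −2.36, and most medians are within 0.3 of 0.

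Genes described as β-catenin targets in some tissue changed in both directions. Of 25 such genes 19 were tested, 4 rose and 2 fell, or 31.6%, against 14.2% of all genes tested, with a median log2 fold change of 0.08. The list was chosen with earlier results of these data known, so nothing more is read from this difference. CCND1, which encodes cyclin D1, was at 115, 141 and 156 CPM in siControl and at 251, 322 and 339 CPM in siDAB2IP and rose (log2 fold change 1.14, adjusted p = 0.00183, edgeR). PLAUR, the urokinase receptor, rose from 35.5 ± 5.80 to 78.0 ± 5.54 CPM (log2 fold change 1.14, adjusted p = 0.00109), and the AP-1 member FOSL1 from 20.6 ± 2.56 to 36.5 ± 5.34 CPM (0.83, adjusted p = 0.00636). CLDN1, a tight junction claudin, rose less (0.41, adjusted p = 0.0275). TWIST1, a transcription factor of mesenchymal cells, fell from 42.3 ± 3.52 to 25.3 ± 1.69 CPM (−0.74, adjusted p = 0.00372), and the protease MMP7 fell at a low level (1.96 ± 0.49 to 0.60 ± 0.32 CPM, −1.69, adjusted p = 0.0297). CLDN1 lost its call without siControl replicates 1, 2 and 3 and without siDAB2IP replicate 1 (adjusted p = 0.0820 to 0.106), and so did MMP7 (0.0545 to 0.0999). CD44, the most abundant of the list by mean over the libraries, was at 834 ± 64.8 and 673 ± 28.6 CPM and did not pass (−0.31, adjusted p = 0.0923, edgeR). These genes are also described as targets of other factors, so the list does not measure β-catenin activity alone.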

How the data were processed

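RNA-Seq of 6 MCF10A libraries was used. Per the labels, the processing notes of the submitters name STAR 2.6.1d, featureCounts 1.5.0-p3, DESeq2 1.20.0, edgeR 3.24.3 and hg38, and the strand setting of the counting is not given in the sources used here. The authors deposited whole-number counts per gene, without normalization, and FPKM values, used only in alternatives and computed by the authors from count, gene length and a scaled library total. All 58735 genes have the start, end and strand of GENCODE release 29.

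The main test was that of edgeR 4.0.16 under R 4.3.3: TMM scaling after filterByExpr by group, glmQLFit and glmQLFTest, with p-values of the 15430 genes that passed adjusted by Benjamini-Hochberg and a threshold of 0.05. TPM was computed from counts and the gene lengths of the table. The script was tested on simulated data. Single genes were also tested with two-sided exact permutation of libraries. Alternatives were RLE size factors, library size only, no filter, protein-coding genes only, a minimum of 10 counts per library, an adjusted p under 0.01, a replicate block, DESeq2 1.42.0, limma 3.58.1 on log2(FPKM + 1) and log2(FPKM + 0.1) (mean FPKM 1 or more), and leaving out each library.

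Replicate numbers come from the labels. Deviations from the group means correlated at 0.26, 0.15 and 0.25 for libraries with the same number and at −0.28 to 0.02 otherwise. Such deviations cancel within a group by construction, so the lower values are not independent of the higher ones. Treating libraries as paired by number in the replicate block was a choice made from these same data. Whether they are paired was not tested. The labels do not say what a number stands for.

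The genes and lists were chosen with earlier results of these data known. Named were DAB2IP, the 10 genes, the called genes of the pathway, target and junction lists (at most 5 per list and direction, by smallest p) and the most abundant gene of a list as an example. KRT5, KRT14 and the other markers were named as checks of the cell type.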

Additional observations from a re-analysis of the deposited data

How the results depend on the processing

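The fall of SFRP1 passed the threshold in each of its 15 alternatives (log2 fold change −0.83 to −0.68), and that of CTNNB1 in 14 of 15 (−0.53 to −0.40 with libraries left out, adjusted p = 0.0714 without siControl replicate 2). With the replicate block, WNT7A passed (log2 fold change 1.05, adjusted p = 0.0391), 2 of the 10 genes rose in place of 1, and 9 pathway genes rose and 17 fell in place of 5 and 10. The block changed no other call among the 10 genes. Without the filter on low counts WNT7A (1.00, adjusted p = 0.0477) and DKK1 (0.37, adjusted p = 0.0296) passed too, so that 3 of the 10 rose, and 18 pathway genes fell. With limma on FPKM, where WNT7A, WNT7B, WNT5B and AXIN2 were under the minimum, 0 of the 10 rose with either pseudocount, 6 pathway genes and 1 target gene fell, and with log2(FPKM + 0.1) 659 of all genes rose and 758 fell. At an adjusted p under 0.01, 0 of the 10 genes rose and 1 fell, 2 pathway genes rose and 6 fell, 1 target gene fell, and 254 of all genes rose and 368 fell. DESeq2 called 4 target genes as fallen and the minimum of 10 counts in every library 1.

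With each library left out in turn, 0 to 2 of the 10 genes rose and 1 to 2 fell, 2 to 6 pathway genes rose and 6 to 14 fell, 3 to 4 target genes rose and 1 to 3 fell, and 264 to 1172 of all genes rose and 459 to 1352 fell. The log2 fold change of WNT7B was 0.82 to 1.40, that of DKK1 0.25 to 0.51, that of WNT5B −0.60 to 0.057 and that of TCF7L2 −0.076 to 0.12, with changes of sign in the last 2, which passed in no fit. The difference of AXIN2 was −0.18 to 0.10 CPM. Of 22 other named genes, 13 kept their call in every alternative run and none changed direction. Shares of the WNT ligands were the same from FPKM. Depth limits AXIN2, WNT5B and WNT7A, which had at most 49 counts in a library. The cause of the changes was not tested.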
